A study of Homo sapiens with 24 samples.

Results

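The data compare untreated AGS cells with AGS cells kept for 24 h with the inhibitor PI103. AGS is an established cell line from a human gastric adenocarcinoma. The 8 RNA sequencing libraries were chosen by their labels, 4 labelled as the PI103 group and 4 as the control group, out of 24 libraries in the series. PI103 was given at 0.7 µM, and the control label states no treatment and does not say whether a vehicle was added. All groups carry the genotype label WT and were grown in Ham's F12 medium with 5% fetal calf serum. For a direct contrast, 4 libraries with PD0325901, a MEK inhibitor, at 0.035 µM and 4 libraries with the TAK1 inhibitor (5Z)-7-oxozeaenol (oxozeaenol in the following) at 0.5 µM were used. The remaining 8 libraries hold PI103 combined with either agent, at reduced doses, and enter no contrast. They enter the choice of genes tested, the scaling, the estimate of the spread and the principal components. All groups are cultures of 1 cell line, so the results describe that line. The labels give each replicate number its own batch and do not say whether the replicates are separate cultures, so p values measure the spread between these libraries. Going by its title, the series was made to follow metabolic changes that drugs bring about in a cancer line through metabolic models.

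PI103 inhibits class I PI3 kinases, mTOR and DNA-PK. PI3 kinase carries signals from receptor tyrosine kinases to AKT, and mTOR complex 1 couples growth factors and amino acids to protein, lipid and nucleotide synthesis, partly by raising translation of the transcription factor ATF4. When AKT is inactive, FOXO transcription factors enter the nucleus and switch on genes for receptors, cell cycle brakes and pro-death proteins, which is known as receptor feedback. AKT and mTOR activity are set by phosphorylation, so the level of a pathway's own mRNAs is not a readout of its activity.

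Control libraries held 56249866 to 84226380 counts in genes and PI103 libraries 57196637 to 65141500, and 13947 of 23368 genes had enough counts to be tested. Levels are given in CPM, counts-per-million of the scaled library. An error after a mean is the SD over 4 libraries, and an error after a log2 fold change is the standard error (SE). Adjusted p values are from the quasi-likelihood test of edgeR, adjusted after Benjamini and Hochberg over all 13947 genes, and a gene is called, and said to rise or fall, at an adjusted p under 0.05. The 8 epithelial markers summed to 6038 to 6992 CPM in control and 6366 to 7248 CPM with PI103, and all 8 were present at 1 CPM or more in both groups. Immune markers summed to 1.19 to 1.51 CPM in control and 0.415 to 0.808 CPM with PI103, with CD3E at 0 in all 8 libraries. Endothelial markers summed to 0.130 to 0.210 CPM in control and 0.103 to 0.323 CPM with PI103. Fibroblast markers summed to 61.1 to 83.4 CPM in control and 99.3 to 112 CPM with PI103, with 2 of 7 at 1 CPM or more, COL1A2 at 0 in all control libraries and DCN and LUM at 0 in all PI103 libraries. The part of this shift in the results below was not tested. On the first 2 principal components of all 24 libraries, which hold 41.89% and 18.99% of the variance, the 4 PI103 libraries stood together and apart from control, at -20.1 to -13.5 against -71.4 to -65.5 on the first and at -42.7 to -38.9 against 17.28 to 26.03 on the second. Fewer cells in a state and less RNA per cell cannot be told apart in such bulk libraries.

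PI103 moved the levels of 7162 of 13947 genes, 51.4% of those tested, with 3654 higher (26.2%) and 3508 lower (25.2%). The libraries of the 2 groups did not overlap in 6816 genes (48.9%). Most changes were moderate, with a median size of 0.57 on the log2 scale among called genes and 2964 called genes under 0.5. Called rises over 1 on the log2 scale were found in 877 genes and called falls over 1 in 627, whereas over 2 there were 142 rises and 180 falls. The largest falls were larger in size than the largest rises, as the plot of the largest changes by library shows. Genes called lower lost 125500 CPM in sum, and genes called higher gained 82440 CPM. The called share of a list is to be read against the 51.4% of all genes. It lay near that, at 46.67% to 54.55%, in the citric acid cycle, lysosomal amino acid sensing, cholesterol, chaperone, purine and pyrimidine, and fatty acid oxidation lists, whose number of calls does not stand out. It was lower, at 41.18% to 45.0%, in the mitochondrial synthetase, keratin and junction, BCL2 family, pentose phosphate and apolipoprotein lists. The lowest shares were in the mitosis (39.53%), respiratory chain (26.87%) and ribosomal protein (11.54%) lists.

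**Figure D1:**
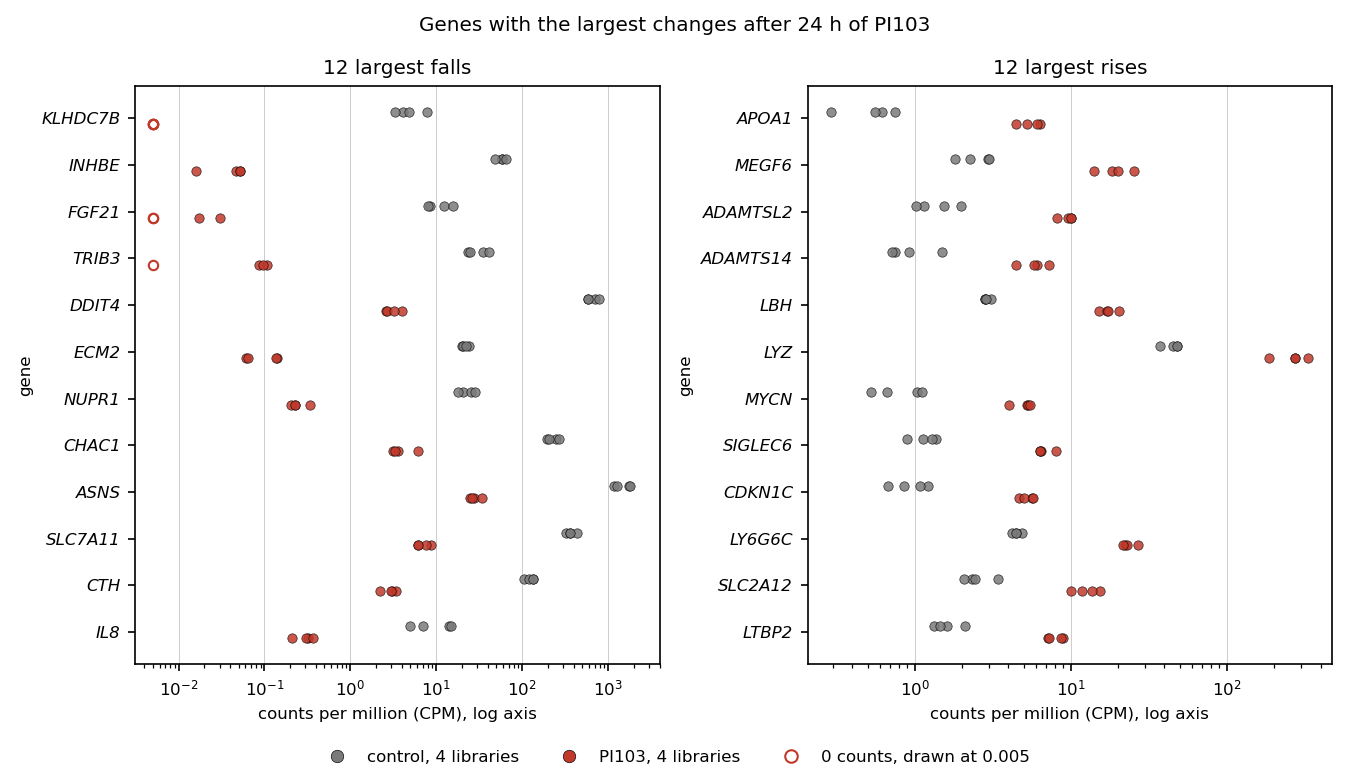
Levels in CPM (log axis) of the 12 genes with the largest falls (left) and the 12 with the largest rises (right) among genes with at least 5 CPM in 1 group, with 4 control libraries in grey and 4 PI103 libraries in red. Open circles are libraries with 0 counts, and in all 24 genes the 2 groups do not overlap.

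The steepest falls were in genes of the integrated stress response, the program in which ATF4 raises genes for amino acid import, amino acid synthesis and tRNA charging. Of 38 tested genes on a list of ATF4 targets and related stress genes, 37 fell and none rose, with a median log2 fold change of -3.14 against 0.022 over all genes. All 37 fell by more than 1 on the log2 scale. The single member not called was ALDH1L2, a mitochondrial folate enzyme, at 0.168 ± 0.0662 CPM in control and 0.134 ± 0.0791 CPM with PI103 (adjusted p = 0.5605). The mean log2 level of the list, set to 0 at the control mean, was -3.11 to -2.95 in the 4 PI103 libraries and -0.15 to 0.19 in the 4 control libraries. ATF4 itself, the transcription factor, measured 759, 810.2, 726 and 868 CPM in control and 357, 367, 321 and 339.9 CPM with PI103. It fell with a log2 fold change of -1.19 ± 0.10, less than most of its targets.

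INHBE, which encodes the beta E subunit of inhibin and activin, measured 58.8, 58.5, 47.8 and 65.7 CPM in control and 0.0461, 0.05203, 0.0514 and 0.0162 CPM with PI103. The PI103 libraries held 3, 3, 3 and 1 counts of it, so the ratio of control to PI103 was 1402 with a 95% counting interval of 762 to 2924. FGF21, a hormone released by stressed or fasting cells, measured 8.42, 12.4, 8.01 and 15.7 CPM in control and had 2, 0, 1 and 0 counts with PI103, a ratio of 900.1 with a counting interval of 308 to 4365. Outside that list the lowest level was reached by KLHDC7B, a kelch domain gene, at 7.87, 4.15, 3.29 and 4.87 CPM in control and 0 counts in all 4 PI103 libraries. Against a floor of 3 counts per library this is at least 102-fold lower. These intervals and the floor cover counting error only. In all 3 genes every PI103 library lay below every control library.

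TRIB3, a pseudokinase that binds AKT and feeds back on the stress response, measured 23.6, 34.6, 24.8 and 41.5 CPM in control and 0.108, 0.0867, 0 and 0.0969 CPM with PI103. DDIT4, also called REDD1, restrains mTOR complex 1 through the TSC complex, and it measured 584, 703, 593 and 792 CPM in control and 2.63, 3.99, 2.64 and 3.198 CPM with PI103. Its log2 fold change was -7.75 ± 0.84. NUPR1, a small stress-induced nuclear protein, measured 20.4, 25.1, 18.1 and 28.2 CPM in control and 0.338, 0.226, 0.206 and 0.226 CPM with PI103. All PI103 libraries of these 3 genes lay far below all control libraries. CHAC1, an enzyme that breaks down glutathione, measured 197, 247, 204 and 270.5 CPM in control and 3.58, 6.14, 3.15 and 3.34 CPM with PI103, with PI103 replicate 2 above its group. VEGFA, the angiogenic growth factor, fell from 236 ± 28.2 CPM in control to 27.8 ± 2.18 CPM with PI103 (log2 fold change -3.08 ± 0.17). SESN2, a leucine sensor that restrains mTOR complex 1, fell from 152 ± 24.3 CPM in control to 15.8 ± 1.41 CPM with PI103. CEBPG, a dimer partner of ATF4, fell from 374 ± 41.03 CPM in control to 103 ± 4.31 CPM with PI103, and control replicate 1 was the lowest control at 313 CPM. GPT2, a mitochondrial alanine transaminase, fell from 145 ± 12.01 CPM in control to 29.8 ± 3.02 CPM with PI103.

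The promoters of the list were searched for the element that ATF4 and C/EBP proteins share. Promoter sequences from RefSeq (GRCh38.p14) were found for 30 of the 40 list members in the table, and the letters TGATGNAA were searched on both strands in the 250 bases before each start. They were found in 4 of the 30 (13.3%), against 870 of all 27305 promoters in the table (3.2%) and 155 of 10529 promoters of tested genes (1.5%). The 4 members are printed below, 5′ to 3′ on the gene's strand, because they hold the match. Capitals mark the match, and a window that touches an annotated exon is held to 30 bases. A match is a description of these letters and not a mapped site.
FGF21, chr19:48755424-48755523, plus strand: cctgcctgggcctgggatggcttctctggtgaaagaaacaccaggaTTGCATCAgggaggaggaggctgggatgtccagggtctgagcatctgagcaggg
ATF3, chr1:212565170-212565269, plus strand: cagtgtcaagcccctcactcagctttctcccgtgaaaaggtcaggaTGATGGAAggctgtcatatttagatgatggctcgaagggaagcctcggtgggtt
ASNS, chr7:97872458-97872487, minus strand: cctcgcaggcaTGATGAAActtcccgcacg
CHAC1, chr15:40953251-40953280, plus strand: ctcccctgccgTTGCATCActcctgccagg
The match begins 54 bases before the start of FGF21, 191 before that of ATF3, 68 before that of ASNS and 209 before that of CHAC1. FGF21 and CHAC1 hold the element on the opposite strand, as TTGCATCA. ATF3, a stress-induced transcription factor of the same family that was taken up for its match after its values were seen, fell from 399.6 ± 128 CPM in control to 67.9 ± 14.3 CPM with PI103. The 4 list members with the element had a median log2 fold change of -5.78 and the 25 tested members without it -3.05. Over all tested genes with a promoter these medians were -0.16 with the element and 0.009 without.

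Amino acid synthesis genes were among the steepest falls. ASNS, asparagine synthetase, lies on chromosome 7 from 97852118 to 97872542 on the minus strand in GRCh38 (GENCODE 29) and measured 1162, 1767, 1269 and 1798 CPM in control and 27.3, 34.1, 24.9 and 25.8 CPM with PI103. Its log2 fold change was -5.74 ± 0.43 (adjusted p = 5.39e-10), and 44.6% of its exon bases are shared with another gene of the same strand. On a list of 24 tested serine, glycine and one-carbon enzymes, 9 fell, 6 rose and 9 were not called. The falls were in PHGDH, PSAT1, PSPH, SHMT2, MTHFD1L, MTHFD2, ALDH1L1, AHCY and CTH. All of these but MTHFD1L, ALDH1L1 and AHCY also stand on the ATF4 list and were counted there. PSAT1, the transaminase of serine synthesis, measured 1643, 1976, 1830 and 1998 CPM in control and 109, 124, 107 and 104 CPM with PI103. PSPH, which completes serine synthesis, fell from 276 ± 67.7 CPM in control to 27.5 ± 2.82 CPM with PI103. MTHFD2, the mitochondrial folate dehydrogenase, fell from 1084 ± 113 CPM in control to 117 ± 10.5 CPM with PI103, and 33.2% of its exon bases lie under an antisense gene. CTH, which makes cysteine from cystathionine, fell from 123 ± 13.9 CPM in control to 2.92 ± 0.483 CPM with PI103. The members that rose included SHMT1, TYMS, MAT2A, GLDC and AMT, so the list did not move as one.

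Amino acid carriers divided in the same way. Of 24 tested transporters, 10 fell, all 10 by more than 1 on the log2 scale, while 4 rose by less than 1 and 10 were not called. Of the carriers that fell, all but SLC38A1 and SLC43A1 also stand on the ATF4 list, so their falls are counted in both. SLC7A11, the cystine importer, measured 328, 366, 439.8 and 360.2 CPM in control and 6.17, 8.65, 7.54 and 6.09 CPM with PI103. SLC3A2, the heavy chain it shares with other carriers, fell from 562 ± 36.3 CPM in control to 146 ± 13.5 CPM with PI103. SLC7A5, the leucine carrier LAT1, fell from 996 ± 99.9 CPM in control to 186 ± 24.6 CPM with PI103, a log2 fold change of -2.42 ± 0.17. SLC1A5, a glutamine carrier, fell from 1136 ± 75.7 CPM in control to 319 ± 35.6 CPM with PI103. The steepest fall in this list after SLC7A11 was in SLC6A9, a glycine carrier, from 67.9 ± 7.52 CPM in control to 4.16 ± 0.928 CPM with PI103. SLC1A4, a carrier of small neutral amino acids, fell from 83.02 ± 7.41 CPM in control to 11.9 ± 1.66 CPM with PI103. SLC7A8, SLC36A1, SLC38A7 and SLC38A10 were the carriers that rose.

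tRNA synthetases, which load amino acids onto tRNAs, fell across most of the cytosolic set. Of 23 tested cytosolic synthetase genes and their scaffold partners, 19 fell and 1 rose, with a median log2 fold change of -1.23. The gene that rose was QARS, and DARS, KARS and RARS were not called. CARS, for cysteine, measured 286, 318, 285 and 354 CPM in control and 46.4, 57.8, 45.5 and 42.6 CPM with PI103. YARS, for tyrosine, fell from 427 ± 15.5 CPM in control to 78.5 ± 9.98 CPM with PI103. WARS, for tryptophan, fell from 402 ± 32.9 CPM in control to 96.3 ± 7.07 CPM with PI103. SARS, for serine, fell from 557 ± 86.4 CPM in control to 134 ± 3.66 CPM with PI103. Of 17 tested mitochondrial synthetases, 5 fell and 2 rose, with a median of -0.040. MARS2 had the largest change among them, from 21.3 ± 2.31 CPM in control to 10.8 ± 1.66 CPM with PI103. VARS2 rose from 25.7 ± 1.69 CPM in control to 30.5 ± 1.98 CPM with PI103. NARS2, for asparagine, fell from 49.2 ± 2.06 CPM in control to 30.6 ± 1.34 CPM with PI103. WARS2, for tryptophan, fell from 30.8 ± 1.8 CPM in control to 23.3 ± 1.75 CPM with PI103. The difference between both sets was not tested.

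Genes that set translation itself also moved. eIF2 brings the initiator tRNA to the ribosome, and its phosphorylation is the switch of the integrated stress response. Of 15 tested genes for eIF2, eIF2B, the eIF2 kinases and related regulators, 9 fell and 2 rose. EIF2S2, the beta subunit of eIF2, measured 809, 913, 897 and 964 CPM in control and 337, 343, 319.9 and 300.2 CPM with PI103. EIF2S1, the alpha subunit, fell from 452 ± 18.5 CPM in control to 248 ± 6.85 CPM with PI103. EIF2S3, the gamma subunit, fell from 711 ± 17.8 CPM in control to 457 ± 18.6 CPM with PI103. The kinases EIF2AK1 (HRI) and EIF2AK4 (GCN2) rose, and EIF2AK2 and EIF2AK3 were not called. PPP1R15B, the constitutive eIF2 phosphatase subunit, fell from 252 ± 34.3 CPM in control to 134 ± 13.7 CPM with PI103. Among 32 tested initiation and elongation factors 17 fell and 3 rose, with EIF1, a start codon selection factor, falling from 1134 ± 137 CPM in control to 415 ± 24.1 CPM with PI103. EIF5, which triggers GTP hydrolysis by eIF2, fell from 1334 ± 167 CPM in control to 615 ± 37.5 CPM with PI103. The eIF3 subunit gene EIF3J fell from 176 ± 10.4 CPM in control to 108 ± 9.37 CPM with PI103. EIF3M, another subunit, fell from 428 ± 55.1 CPM in control to 260.1 ± 19.3 CPM with PI103.

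Ribosome assembly genes fell broadly, while most ribosomal protein genes were not called. Of 57 tested genes for RNA polymerase I and ribosome assembly, 48 fell and 1, UBTF, rose, with a median log2 fold change of -0.57. DDX21, a nucleolar RNA helicase, measured 705, 639.8, 714 and 663 CPM in control and 279, 280, 274 and 225 CPM with PI103. PI103 replicate 4 was the lowest library, and the groups were far apart. RRN3, which recruits RNA polymerase I to the rRNA genes, fell from 114 ± 5.74 CPM in control to 59.8 ± 4.93 CPM with PI103. UTP15, of the small subunit processome, fell from 56.05 ± 2.61 CPM in control to 27.7 ± 1.81 CPM with PI103. NOP2, an rRNA methyltransferase with 54.4% of its exon bases under another gene of its strand, fell from 106 ± 7.596 CPM in control to 52.97 ± 6.49 CPM with PI103. Of 78 tested ribosomal protein genes, 5 fell, 4 rose and 69 were not called. RPSA, of the small subunit, fell from 1876 ± 190.5 CPM in control to 1394 ± 80.3 CPM with PI103. RPS27 rose from 995 ± 61.7 CPM in control to 1286 ± 90.8 CPM with PI103. RPL32 was called lower at 1280 ± 233 CPM in control and 948 ± 125 CPM with PI103 with overlapping libraries, and leaving out control replicate 2, control replicate 4 or PI103 replicate 3 ended that call. RPL21 fell from 3.51 ± 0.994 CPM in control to 2.06 ± 0.269 CPM with PI103, a level at which reads shared with near-identical copies make its value uncertain. With the replicate number as a block, 18 ribosomal protein genes were lower in place of 5, and leaving out single libraries gave 2 (control replicate 2 or 4 or PI103 replicate 3) to 23 (control replicate 3), with 3 without PI103 replicate 1 and 11 without PI103 replicate 4. The higher count was 2 without control replicate 2 or 3 or PI103 replicate 4. Their mRNAs are known to be controlled at translation, which these counts do not measure.

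MYC drives ribosome assembly and nucleotide synthesis. It measured 301, 294, 247 and 329.8 CPM in control and 153, 152, 136 and 133 CPM with PI103, with a log2 fold change of -1.03 ± 0.12 and no overlap between groups. Among 13 tested genes of the MYC network, 5 rose and 4 fell. MYCN, a relative of MYC, rose from a low level and measured 1.04, 0.6705, 1.12 and 0.525 CPM in control and 4.03, 5.24, 5.31 and 5.48 CPM with PI103. MXD3, an antagonist that competes for the partner MAX, rose from 5.03 ± 0.783 CPM in control to 14.3 ± 0.684 CPM with PI103. MLX, a partner of the glucose-responsive MondoA factor, fell from 70.9 ± 8.57 CPM in control to 45.3 ± 1.63 CPM with PI103.

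**Figure D2:**
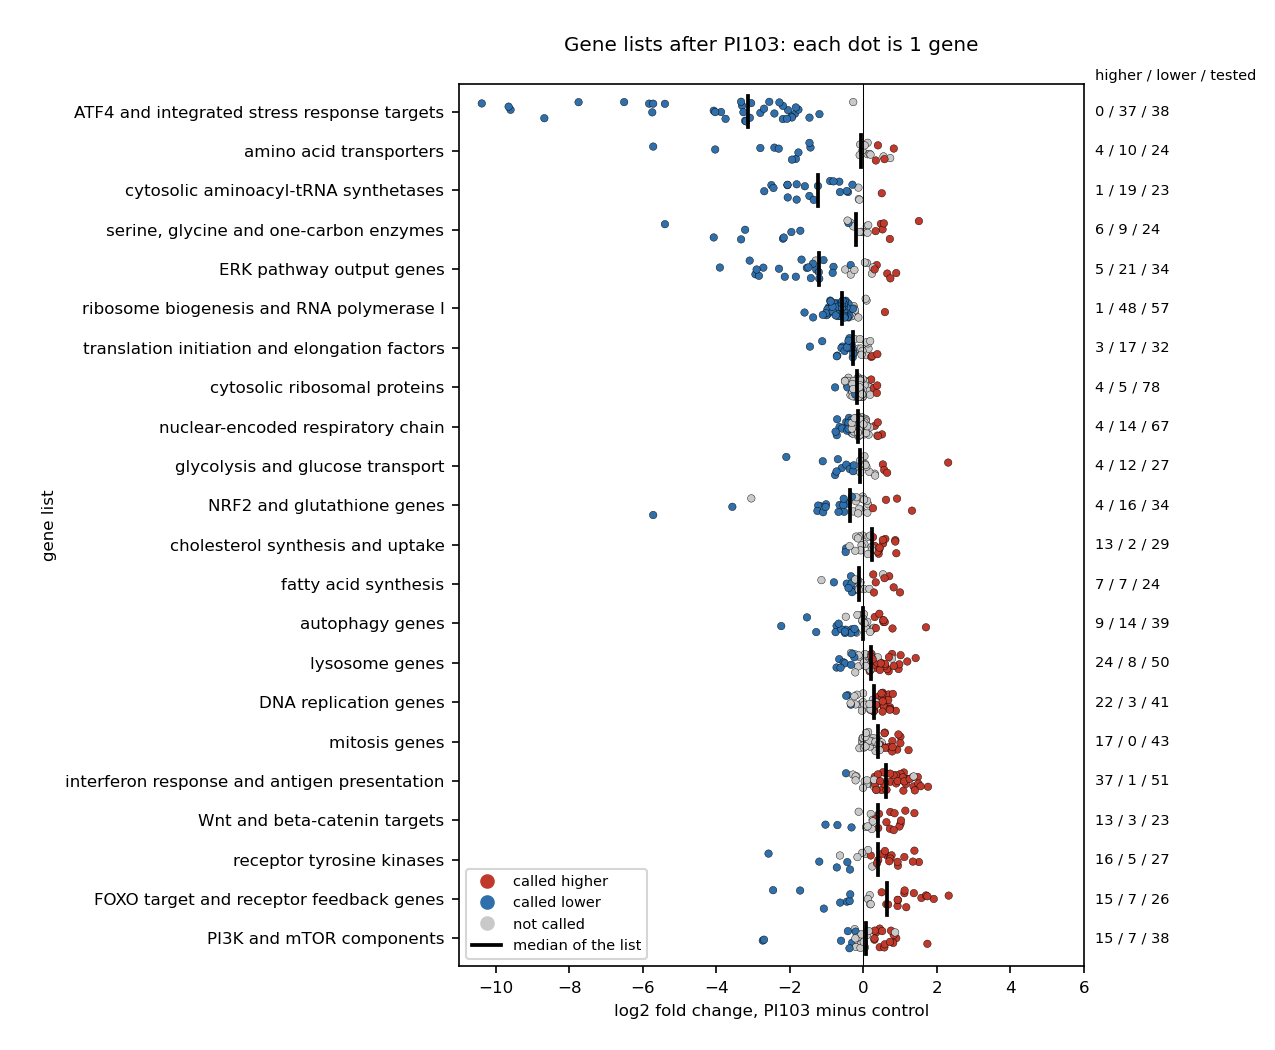
Log2 fold changes of PI103 against control for the tested genes of 22 lists, 1 dot per gene, with the list median as a bar and the numbers of genes called higher and lower and tested at the right. The ATF4 list sits furthest to the left at a median of -3.14, and the interferon and FOXO lists lie to the right of 0.

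The targets of PI103 and their partners moved in both directions, mostly by small amounts. Of 38 tested PI3 kinase and mTOR components, 15 rose, 7 fell and 16 were not called, with a median of 0.064. PIK3CA, the p110 alpha catalytic subunit, measured 22.5, 22.8, 26.2 and 20.3 CPM in control and 33.6, 25.6, 31.7 and 26.3 CPM with PI103, and its libraries overlapped although the rise was called (adjusted p = 0.006798). Of its exon bases 35.8% lie under an antisense gene. PIK3CD, the p110 delta subunit, rose from 1.77 ± 0.236 CPM in control to 3.303 ± 0.526 CPM with PI103. The PIK3R1 gene, for the p85 alpha regulatory subunit, fell from 104 ± 10.5 CPM in control to 84.8 ± 3.81 CPM with PI103. Others were not called. PIK3CB, the p110 beta subunit, was at 66.4 ± 9.62 CPM in control and 70.3 ± 7.43 CPM with PI103. MTOR was at 63.8 ± 2.16 CPM in control and 58.04 ± 1.91 CPM with PI103. RPTOR, of mTOR complex 1, was at 33.3 ± 3.78 CPM in control and 32.05 ± 2.45 CPM with PI103, with control replicate 1 the highest control. PRKDC (DNA-PK) was at 323 ± 36.2 CPM in control and 326 ± 20.3 CPM with PI103.

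RICTOR, of mTOR complex 2, was called higher at 53.7 ± 8.63 CPM in control and 66.3 ± 9.502 CPM with PI103 (adjusted p = 0.0211), but its libraries overlapped. Leaving out any 1 of control replicates 1, 2 and 4 or PI103 replicates 1 and 3 ended that call, with adjusted p from 0.0546 to 0.117. Restraints on the pathway moved both ways. DEPTOR, which binds and inhibits mTOR, had the largest fall of the list, with a log2 fold change of -2.73. It was taken up after its values were seen. PHLPP2 and AKT1S1 were also called lower, while several other restraints rose. PHLPP1, a phosphatase for AKT, measured 16.9, 16.6, 17.9 and 13.7 CPM in control and 28.1, 29.5, 26.9 and 31.2 CPM with PI103. TSC1, which restrains mTOR complex 1, measured 27.7, 27.2, 30.4 and 26.7 CPM in control and 44.5, 47.7, 48.7 and 48.1 CPM with PI103. In both genes all PI103 libraries exceeded all controls. EIF4EBP1, an mTOR-controlled translation repressor that also stands on the stress list, fell from 189 ± 38.1 CPM in control to 29.1 ± 5.01 CPM with PI103, whereas its relative EIF4EBP2 rose from 149 ± 15.9 CPM in control to 223 ± 8.63 CPM with PI103. PIK3IP1, an inhibitor of PI3 kinase, rose at a low level from 0.165 ± 0.0905 CPM in control to 0.569 ± 0.0828 CPM with PI103.

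Of 24 tested genes that signal amino acid supply to mTOR at the lysosome, 6 were higher and 6 lower, a share near that of all genes, and 3 were lower with upper-quartile scaling. SESN2 stood apart with a log2 fold change of -3.26 ± 0.25. SESN1, its p53 and FOXO-controlled relative, rose from 41.2 ± 3.24 CPM in control to 58.3 ± 3.75 CPM with PI103. GATSL3 (CASTOR1), the arginine sensor, rose from 1.01 ± 0.2299 CPM in control to 2.19 ± 0.502 CPM with PI103, with 46% of its exon bases under another gene of its strand. FNIP1, a folliculin partner, rose from 28.9 ± 4.83 CPM in control to 40.9 ± 4.41 CPM with PI103.

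**Figure D3:**
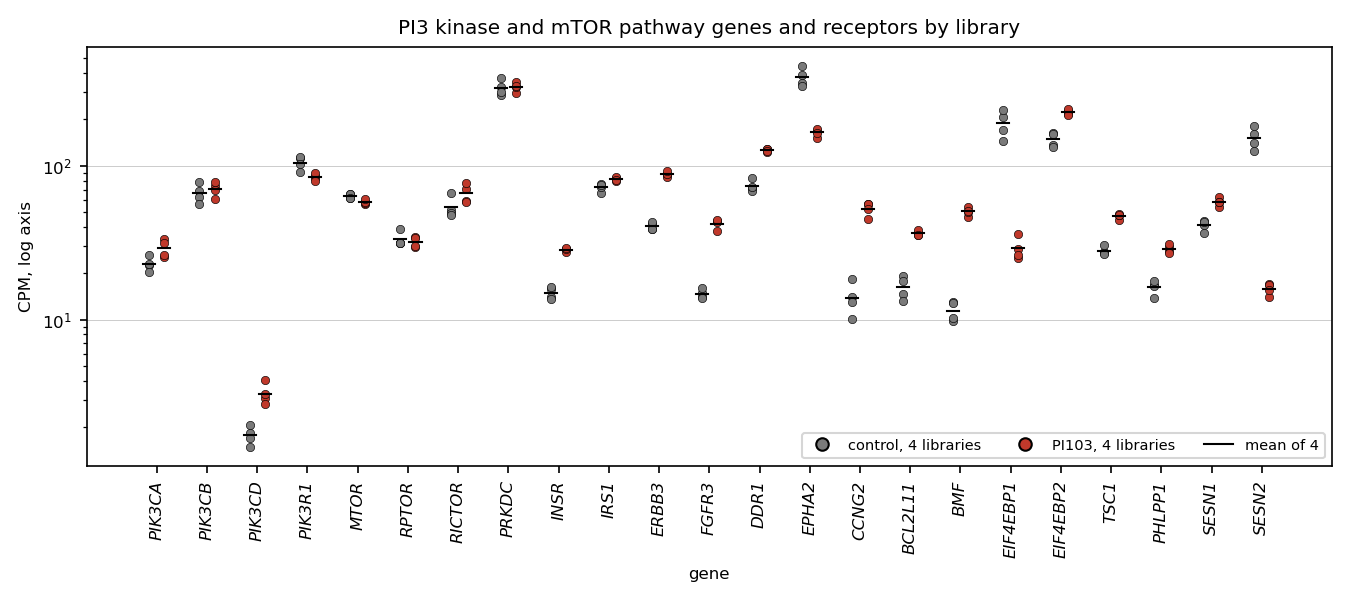
Levels in CPM (log axis) of 23 PI3 kinase and mTOR pathway genes and receptors in each library, 4 control in grey and 4 PI103 in red, with a bar at each mean. ERBB3, INSR and FGFR3 stand apart between the groups, whereas PIK3CB, RPTOR and PRKDC overlap.

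FOXO targets and receptor feedback genes rose as a majority. Of 26 tested genes, 15 rose, 7 fell and 4 were not called, with a median log2 fold change of 0.65. ERBB3, a receptor that docks PI3 kinase, lies on chromosome 12 from 56076799 to 56103505 on the plus strand and measured 41.5, 39.04, 42.9 and 38.5 CPM in control and 86.7, 84.8, 87.9 and 92.2 CPM with PI103. INSR, the insulin receptor, measured 15.7, 14.1, 16.3 and 13.6 CPM in control and 28.9, 27.6, 28.6 and 28.98 CPM with PI103. Both receptors were higher in every PI103 library than in any control library. CCNG2, an atypical cyclin linked to quiescence, measured 14.04, 12.9, 18.5 and 10.04 CPM in control and 56.1, 45.2, 56.2 and 52.4 CPM with PI103. BCL2L11 (BIM), a pro-death protein, measured 19.1, 14.7, 17.7 and 13.1 CPM in control and 36.6, 35.5, 38.1 and 35.3 CPM with PI103. IRS1, an adaptor of the insulin receptor, was at 72.6 ± 4.22 CPM in control and 82.1 ± 2.18 CPM with PI103 and was not called. CDKN1B (p27), a FOXO-controlled CDK inhibitor, was at 159 ± 13.8 CPM in control and 173 ± 9.503 CPM with PI103 and was not called either. IRS2 is listed at 0 in all 24 libraries.

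Members of the FOXO list that fell were FOXO3, KLF6, TXNIP, CITED2, GADD45A, GADD45B and SOD2. GADD45A, a stress gene that p53, ATF4 and FOXO factors can all raise, measured 69.02, 92.4, 72.2 and 95.2 CPM in control and 15.9, 13.98, 14.6 and 15.6 CPM with PI103. The letters GTAAACA, searched on both strands in the 250 bases before the start, were found in 3 of 26 list promoters (11.5%), 813 of all 27305 (3.0%) and 205 of 10529 promoters of tested genes (1.9%). These 3 are shown because they hold the match, in capitals, 5′ to 3′ on the gene's strand (RefSeq, GRCh38.p14).
BCL2L11, chr2:111120664-111120743, plus strand: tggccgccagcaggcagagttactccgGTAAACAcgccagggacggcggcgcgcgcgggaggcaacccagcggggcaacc
TXNIP, chr1:145996651-145996749, minus strand: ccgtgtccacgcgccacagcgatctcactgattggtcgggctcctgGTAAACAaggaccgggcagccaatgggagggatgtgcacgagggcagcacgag
C10orf10, chr10:44978937-44979035, minus strand: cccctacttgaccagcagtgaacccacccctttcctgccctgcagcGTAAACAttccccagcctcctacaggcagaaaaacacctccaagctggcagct
The match starts 223, 124 and 180 bases before the start of BCL2L11, TXNIP and C10orf10. The genes with the letters did not share a direction. C10orf10 (DEPP1), a gene that FOXO factors induce, rose from 0.779 ± 0.334 CPM in control to 2.52 ± 0.552 CPM with PI103. TXNIP, a brake on glucose uptake, fell from 461 ± 39.6 CPM in control to 140.3 ± 15.6 CPM with PI103. TXNIP and C10orf10 were taken up after their values were seen.

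Receptor tyrosine kinases rose beyond the receptors of the FOXO list. Of 27 tested, 16 rose and 5 fell, and 13 were higher with PI103 than in control, PD0325901 and oxozeaenol alike, against 6.8% of all genes. FGFR3, a fibroblast growth factor receptor, measured 14.9, 14.1, 16.1 and 13.8 CPM in control and 37.6, 43.7, 42.9 and 44.1 CPM with PI103. DDR1, a collagen receptor, measured 83.1, 71.2, 68.2 and 72.9 CPM in control and 128, 128, 122 and 126 CPM with PI103. No control library reached a PI103 library in either gene. EPHA2, an ephrin receptor and ERK output gene, fell from 378 ± 51.5 CPM in control to 165 ± 9.29 CPM with PI103, and EGFR, MET, DDR2 and ROR1 also fell.

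Output genes of the ERK pathway mostly fell. Of 34 tested, 21 fell, 5 rose and 8 were not called, with a median of -1.20. HBEGF, a ligand of EGFR, measured 69.2, 92.96, 72.2 and 103 CPM in control and 10.8, 10.3, 10.1 and 8.46 CPM with PI103. PHLDA1, an early growth response gene, measured 232, 258, 231 and 280.5 CPM in control and 37.6, 33.96, 36.9 and 31.7 CPM with PI103. IER3, an immediate early gene with 26.5% of its exon bases under an antisense gene, fell from 193 ± 41.4 CPM in control to 25.2 ± 2.72 CPM with PI103. KLF10 fell from 172 ± 3.21 CPM in control to 61.02 ± 9.88 CPM with PI103. In each of these genes the groups were apart. Called higher were SPRY2, ETV1, EPHA4, PLAUR and IER5. These rises were the less stable part, since leaving out any 1 library except PI103 replicate 4 gave 2 (without control replicate 4) or 3 higher calls, and keeping genes of low count gave 3. CCND1 (cyclin D1), an output of several growth pathways, was at 891 ± 58.95 CPM in control and 1067 ± 75.5 CPM with PI103 and was not called (adjusted p = 0.17).

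Cell cycle genes did not fall as a group. The called share of mitosis genes, 39.53%, lay below the 51.4% of all genes. Of 43 tested mitosis genes, 17 rose and none fell, with a median of 0.40 and 26 not called. With the 8 libraries of both groups alone in the fit, 30 were higher. BUB1B, a spindle checkpoint kinase, measured 70.1, 54.3, 77.8 and 49.6 CPM in control and 133, 127, 135 and 113 CPM with PI103. ASPM, a spindle pole protein, measured 132, 112, 156 and 101 CPM in control and 240.1, 235, 279.7 and 254 CPM with PI103. All PI103 libraries of BUB1B and ASPM were above all controls, and control replicates 1 and 3 were above control replicates 2 and 4 in both. ANLN, of the cleavage furrow, rose from 362 ± 49.8 CPM in control to 582 ± 49.7 CPM with PI103. NUSAP1, a spindle protein with 62.2% of its exon bases under another gene of its strand, rose from 188 ± 11.7 CPM in control to 357 ± 15.4 CPM with PI103.

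DNA replication genes followed, with 22 higher and 3 lower of 41 tested. The lower count was 1 without control replicate 2 or 4, without PI103 replicate 2 or 3 or with upper-quartile scaling, and 7 with only the 2 groups in the fit. FEN1, the flap endonuclease, measured 64.6, 42.5, 56.7 and 41.2 CPM in control and 91.2, 105, 91.7 and 91.3 CPM with PI103. MCM5, a subunit of the replicative helicase, rose from 88.1 ± 9.19 CPM in control to 146 ± 10.7 CPM with PI103. The subunits MCM6 and MCM7 followed. MCM6 rose from 133 ± 17.8 CPM in control to 213 ± 13.4 CPM with PI103. MCM7 rose from 147 ± 24.5 CPM in control to 258 ± 16.7 CPM with PI103. Of 25 tested G1 cyclins, CDKs and their inhibitors, 10 rose and 6 fell. The list held brakes as well as drivers among the rises. CDKN1C (p57) measured 0.6802, 0.857, 1.22 and 1.09 CPM in control and 4.704, 5.65, 5.04 and 5.72 CPM with PI103. CDKN2C (p18) rose from 3.55 ± 0.444 CPM in control to 9.26 ± 0.641 CPM with PI103. RBL2 (p130), a repressor of cell cycle genes, rose from 32.8 ± 4.37 CPM in control to 62.8 ± 5.03 CPM with PI103. CDK2, which drives entry into S phase, rose from 55.6 ± 4.14 CPM in control to 90.2 ± 6.71 CPM with PI103. mRNA levels do not give the share of cells in a phase.

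Interferon and antigen presentation genes mostly rose. Of 51 tested, 37 rose, 17 of them by more than 1 on the log2 scale, and 1, IRF3, fell, with a median of 0.62. The other 13 were not called, among them MX1, IRF7, HLA-B, HLA-C, B2M, TAP2 and CD74. IFIT3, which binds viral RNA complexes, measured 6.38, 6.56, 7.45 and 7.42 CPM in control and 15.8, 14.6, 16.6 and 16.9 CPM with PI103. OAS3, a sensor of double-stranded RNA, measured 33.9, 34.5, 34.6 and 32.3 CPM in control and 74.6, 75.2, 74.2 and 80.2 CPM with PI103. TAPBP (tapasin), which loads peptides on class I molecules, measured 39.2, 34.6, 39 and 37.3 CPM in control and 76.7, 84.2, 82.5 and 82.6 CPM with PI103. IFI27 rose from 1.94 ± 0.311 CPM in control to 4.91 ± 0.138 CPM with PI103. Groups were apart in all of these. Summed immune cell markers stood at 1.19 to 1.51 CPM in control and 0.415 to 0.808 CPM with PI103, and their part in these rises was not tested.

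NF-kB targets and chemokines went both ways, with 10 lower and 6 higher of 25 tested. IL8 (CXCL8), a neutrophil attractant, measured 4.97, 13.99, 7.05 and 14.7 CPM in control and 0.323, 0.208, 0.309 and 0.371 CPM with PI103. Control libraries 2 and 4 held more than 1 and 3, yet every control exceeded every PI103 library. CXCL3 fell from 10.3 ± 3.804 CPM in control to 2.48 ± 0.405 CPM with PI103. NFKB2, a subunit of NF-kB, fell from 34.3 ± 3.96 CPM in control to 17.3 ± 0.422 CPM with PI103. CFB, complement factor B, rose from 0.366 ± 0.0881 CPM in control to 2.19 ± 0.551 CPM with PI103, with 45.5% of its exon bases under another gene of its strand.

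Glucose use genes fell more often than they rose. Of 27 tested glycolysis and glucose transport genes, 12 fell and 4 rose. HK2, the inducible hexokinase, measured 118, 104, 112 and 103 CPM in control and 25.3, 30.01, 25.5 and 21.3 CPM with PI103. SLC2A1 (GLUT1), the main glucose carrier, measured 1537, 1445, 1208 and 1609 CPM in control and 1059, 983, 914 and 908 CPM with PI103. The groups did not overlap in either gene. PFKFB2, a regulator of phosphofructokinase, fell from 77.6 ± 5.24 CPM in control to 46.9 ± 2.35 CPM with PI103. PFKL, a phosphofructokinase subunit, rose from 94.9 ± 6.29 CPM in control to 137 ± 10.3 CPM with PI103. SLC2A12, a glucose carrier with 38.9% of its exon bases under an antisense gene, rose from 2.57 ± 0.599 CPM in control to 12.8 ± 2.39 CPM with PI103.

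Hypoxia-inducible factor targets split into 9 lower and 6 higher of 19. PDK1, the kinase that inhibits pyruvate dehydrogenase, measured 28.02, 25.7, 27.01 and 26.2 CPM in control and 9.35, 8.31, 8.06 and 7.61 CPM with PI103. EPAS1 (HIF2 alpha) fell from 40.3 ± 4.61 CPM in control to 19.3 ± 1.47 CPM with PI103. NDRG1 rose from 8.3 ± 0.618 CPM in control to 23.7 ± 1.93 CPM with PI103. In the pentose phosphate pathway 2 genes rose and 2 fell of 9. H6PD, of the endoplasmic reticulum, rose from 32.3 ± 1.09 CPM in control to 57.4 ± 4.74 CPM with PI103. RPE fell from 133 ± 10.2 CPM in control to 103 ± 5.996 CPM with PI103. TKT, transketolase, was called lower at 363 ± 33.7 CPM in control and 296 ± 41.1 CPM with PI103 with overlapping libraries and PI103 replicate 2 at 358 CPM, and RBKS was called higher at 1.001 ± 0.347 CPM in control and 1.59 ± 0.263 CPM with PI103, also with overlap. Neither call held under all settings, and the counts of this list ranged from 1 to 2 higher and 1 to 3 lower when single libraries were left out.

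Mitochondrial gene lists had small medians, -0.18 for the citric acid cycle and -0.14 for the respiratory chain. Of 30 tested citric acid cycle genes and linked enzymes, 11 fell and 3 rose, a called share near that of all genes, with 1 higher without PI103 replicate 2. IDH2 and IDH1, the mitochondrial and cytosolic isocitrate dehydrogenases, moved in opposite directions. IDH2 measured 24.3, 24.6, 25.5 and 26 CPM in control and 49.6, 54.7, 45.98 and 48.1 CPM with PI103. IDH1 measured 511, 593, 603 and 568 CPM in control and 284, 315, 317 and 329 CPM with PI103. GOT1, the cytosolic aspartate transaminase, fell from 148 ± 13.6 CPM in control to 63.8 ± 2.87 CPM with PI103. SUCLA2, a succinyl-CoA ligase subunit, fell from 224 ± 12.99 CPM in control to 145 ± 7.11 CPM with PI103. Of 67 tested nuclear genes of the respiratory chain, 14 fell, 4 rose and 49 were not called, and 23 were lower with the replicate number as a block. CYC1 fell from 199 ± 29.9 CPM in control to 118 ± 8.72 CPM with PI103. UQCRC2 fell from 286 ± 21.9 CPM in control to 191 ± 6.36 CPM with PI103. NDUFA9 fell from 170.1 ± 25.99 CPM in control to 104 ± 7.22 CPM with PI103. NDUFS7, with 49.1% of its exon bases under an antisense gene, fell from 38.6 ± 5.46 CPM in control to 24.7 ± 3.89 CPM with PI103.

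Lipid genes gave a mixed picture. Of 29 tested cholesterol genes, 13 rose and 2 fell, a called share near that of all genes. SQLE, squalene epoxidase, measured 136, 96.2, 170.4 and 91.4 CPM in control and 198, 254, 231 and 239.9 CPM with PI103. It rose, and every PI103 library lay above every control library. PMVK, of the mevalonate part of the pathway, rose from 31.5 ± 1.53 CPM in control to 42.4 ± 1.08 CPM with PI103. NSDHL, of its sterol part, rose from 28.2 ± 4.49 CPM in control to 40.8 ± 2.27 CPM with PI103. SREBF1, a master regulator of fatty acid synthesis, fell from 144 ± 21.04 CPM in control to 83.1 ± 12.4 CPM with PI103, on a list of 24 with 7 higher and 7 lower. ACSL5, which activates fatty acids, rose from 2.63 ± 0.4598 CPM in control to 5.26 ± 0.947 CPM with PI103. SCD5, a desaturase, rose from 8.897 ± 1.59 CPM in control to 13.3 ± 1.58 CPM with PI103. ACACB, an acetyl-CoA carboxylase, rose from 2.599 ± 0.489 CPM in control to 4.23 ± 0.423 CPM with PI103.

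Of 22 tested fatty acid oxidation genes and PPAR targets, 7 rose and 5 fell, a share near that of all genes, with 3 lower without control replicate 4 and 2 with upper-quartile scaling. PPARA, the fasting-state lipid sensor, rose from 2.94 ± 0.532 CPM in control to 7.23 ± 1.04 CPM with PI103. ACADVL, of very long chain oxidation, rose from 75.7 ± 6.21 CPM in control to 114 ± 8.696 CPM with PI103. The coactivators PPARGC1A and PPARGC1B moved in opposite directions at low levels. PPARGC1A rose from 0.448 ± 0.169 CPM in control to 1.56 ± 0.487 CPM with PI103. PPARGC1B fell from 1.91 ± 1.01 CPM in control to 0.423 ± 0.152 CPM with PI103. Of 20 tested apolipoprotein and lipid efflux genes, 7 rose and 2 fell. APOA1, the main protein of high-density lipoprotein, measured 0.615, 0.559, 0.293 and 0.748 CPM in control and 6.37, 5.27, 4.49 and 6.06 CPM with PI103. It had the largest rise among genes with at least 5 CPM in 1 group, 3.33 ± 0.31 on the log2 scale. APOL1, a trypanolytic apolipoprotein, rose from 2.85 ± 0.427 CPM in control to 12.4 ± 1.78 CPM with PI103. APOL2, its relative, rose from 16.1 ± 1.05 CPM in control to 31.7 ± 2.15 CPM with PI103. SCARB1, a lipoprotein receptor, fell from 64.8 ± 4.99 CPM in control to 36.8 ± 5.23 CPM with PI103.

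In nucleotide and polyamine synthesis, falls outnumbered rises among called genes. Of 28 tested purine and pyrimidine genes, 11 fell and 4 rose, a called share of 53.57%, near the 51.4% of all genes. Their median was -0.20, and no called change exceeded 1 on the log2 scale. The higher count was 1 without control replicate 2 or 4, and 2 without PI103 replicate 2 or with genes of low count kept. CTPS, CTP synthase, measured 188, 177, 178 and 178 CPM in control and 97.95, 101, 89.8 and 84.05 CPM with PI103. GART, of purine synthesis, fell from 334 ± 18.6 CPM in control to 183 ± 10.6 CPM with PI103. ADSL, of the same pathway, fell from 85.2 ± 8.89 CPM in control to 50.3 ± 3.19 CPM with PI103. NME1, a nucleoside diphosphate kinase, fell from 146 ± 22.1 CPM in control to 76.7 ± 9.16 CPM with PI103. Of 13 tested polyamine genes, 7 fell and 1, OAZ2, rose, with 2 higher without control replicate 2. ODC1, which opens the pathway, measured 426, 374, 384 and 380.3 CPM in control and 208, 225, 195 and 188 CPM with PI103. SMOX, spermine oxidase, fell from 85.5 ± 13.5 CPM in control to 36.6 ± 2.21 CPM with PI103. ARG2, mitochondrial arginase, fell from 76.8 ± 4.88 CPM in control to 33.1 ± 1.11 CPM with PI103. AZIN1, an activator of ODC1, fell from 834 ± 89.7 CPM in control to 538 ± 43.4 CPM with PI103.

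Lysosome genes rose more often than they fell. TFEB and TFE3, which mTOR complex 1 holds in the cytoplasm by phosphorylation, act through E-boxes in such genes. Of 50 tested, 24 rose and 8 fell, with a median of 0.21, and TFEB and TFE3 were among those that fell. TPP1, a lysosomal peptidase, measured 37.05, 34.2, 35.1 and 27.9 CPM in control and 79.96, 77.1, 78.05 and 73.02 CPM with PI103. NPC2, which moves cholesterol out of lysosomes, measured 126, 137, 121 and 134 CPM in control and 270.4, 256, 254 and 267 CPM with PI103. GUSB, beta-glucuronidase, rose from 33.6 ± 1.41 CPM in control to 59.8 ± 1.14 CPM with PI103. In all of these every PI103 library exceeded every control.

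The E-box CACGTG, which reads the same on both strands, was found in the 250 bases before the start of 12 of 35 lysosome promoters (34.3%), against 1772 of all 27305 (6.5%) and 910 of 10529 promoters of tested genes (8.6%). Those of 4 of the 12 genes are printed as examples, 5′ to 3′ on the gene's strand (RefSeq, GRCh38.p14), with the E-boxes in capitals. They do not stand for all 12. Among the others CTSA and CLN3 rose and ATP6V0B fell, with a log2 fold change of -0.5. CD63, NEU1, ATP6V0D1 and ATP6V1G1 were not called, and CTSF was not tested. LAMP1, CTSD and MCOLN1 were taken up after their values were seen.
LAMP1, chr13:113297017-113297114, plus strand: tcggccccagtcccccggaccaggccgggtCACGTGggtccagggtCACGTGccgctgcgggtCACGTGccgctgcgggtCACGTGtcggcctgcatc
MCOLN1, chr19:7522537-7522623, plus strand: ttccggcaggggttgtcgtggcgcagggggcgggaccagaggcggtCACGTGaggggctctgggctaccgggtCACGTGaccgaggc
CTSD, chr11:1763957-1763986, minus strand: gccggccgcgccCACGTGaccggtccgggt
GAA, chr17:80101493-80101522, plus strand: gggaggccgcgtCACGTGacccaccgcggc
The LAMP1 window holds 4 of the 5 E-boxes of that promoter and the GAA window 1 of 2. LAMP1, a membrane protein that coats the lysosome, rose from 339 ± 17.6 CPM in control to 479.8 ± 15.8 CPM with PI103. CTSD, a lysosomal protease, rose from 198 ± 13.2 CPM in control to 386 ± 19.8 CPM with PI103. GAA, acid alpha-glucosidase, rose from 17.7 ± 2.48 CPM in control to 34.9 ± 1.53 CPM with PI103. MCOLN1, a lysosomal calcium channel, was at 7.66 ± 1.103 CPM in control and 8.39 ± 0.671 CPM with PI103 and was not called. The 11 tested members with an E-box had a median log2 fold change of 0.19 and the 22 without 0.079, and over all tested genes these medians were -0.002 and 0.008.

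Autophagy genes went both ways, with 14 lower and 9 higher of 39 tested. MAP1LC3B (LC3B), the autophagosome membrane tag, measured 363, 418, 308 and 449.8 CPM in control and 83.3, 79.4, 81.9 and 82.9 CPM with PI103. CALCOCO2, a cargo receptor, fell from 156 ± 8.71 CPM in control to 53.9 ± 4.38 CPM with PI103. ATG3, which attaches LC3 to lipid, fell from 80.9 ± 3.36 CPM in control to 48 ± 1.61 CPM with PI103. WIPI2, an early autophagosome protein, rose from 60.9 ± 4.09 CPM in control to 106 ± 4.67 CPM with PI103. In the BCL2 family 3 genes rose and 4 fell of 16, a called share of 43.75%, below that of all genes. BMF, a pro-death member, measured 12.9, 9.76, 12.8 and 10.2 CPM in control and 54.2, 46.7, 50.3 and 50.97 CPM with PI103. PMAIP1 (NOXA), another pro-death member, moved the other way and fell from 72.5 ± 13.8 CPM in control to 14.2 ± 1.68 CPM with PI103. BCL2L13 fell from 71.8 ± 4.63 CPM in control to 41.7 ± 1.45 CPM with PI103.

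Unfolded protein response genes changed in both directions. Of 25 tested genes, 8 rose and 5 fell, a called share near that of all genes. XBP1, the transcription factor, measured 372, 402, 407 and 444 CPM in control and 129.6, 140.4, 135 and 113 CPM with PI103. ERN1 (IRE1 alpha), which splices XBP1 mRNA, fell from 11.2 ± 1.56 CPM in control to 2.29 ± 0.272 CPM with PI103. ATF6 fell from 187 ± 9.5 CPM in control to 127 ± 9.74 CPM with PI103. HERPUD1, of protein degradation, fell from 156 ± 15.9 CPM in control to 50.2 ± 1.94 CPM with PI103. EDEM1 fell as well. The rises were in HSP90B1, CALR, PDIA3, PDIA4, PDIA6, CRELD2 and MANF, which are chaperones, folding enzymes or related proteins, and in CREB3L2, a transcription factor. With only the 2 groups in the fit 9 genes were lower, and 8 with the replicate number as a block.

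Redox genes leaned down. Of 34 tested NRF2 and glutathione genes, 16 fell and 4 rose, with 2 higher without control replicate 3. NFE2L2 (NRF2), their transcription factor, measured 226, 244, 253 and 236 CPM in control and 123, 120.2, 123 and 109 CPM with PI103. TXNRD1, thioredoxin reductase, fell from 357 ± 21.5 CPM in control to 159 ± 18.1 CPM with PI103. ABCC3, an export pump, rose from 15.1 ± 2.62 CPM in control to 37.8 ± 1.78 CPM with PI103. CYP1A1, the drug-metabolising enzyme that the aryl hydrocarbon receptor induces, measured 14.3, 14.04, 9.53 and 12.8 CPM in control and 0.477, 0.503, 0.411 and 0.452 CPM with PI103. That receptor, AHR, fell from 92.02 ± 12.4 CPM in control to 39.4 ± 5.02 CPM with PI103, with 29.4% of its exon bases under another gene of its strand, and its target TIPARP from 77.8 ± 3.55 CPM in control to 38.9 ± 5.32 CPM with PI103. On the list of 10 receptor and target genes 4 fell and 2 rose. The higher count was 0 without control replicate 2 and 1 without control replicate 1 or 4 or PI103 replicate 1, 2 or 4, under either other filter on low counts and with only the 2 groups in the fit.

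Of 27 tested p53 targets, 10 fell and 6 rose. TNFRSF10B, a death receptor, measured 201, 203, 185 and 204 CPM in control and 95.2, 88.1, 94.8 and 90.5 CPM with PI103. C12orf5 (TIGAR), which lowers glycolytic flux, fell from 84.2 ± 2.296 CPM in control to 46.9 ± 1.43 CPM with PI103, with 42.6% of its exon bases under another gene of its strand. Wnt targets rose in the main, 13 of 23 with 3 lower. LGR5, a stem cell receptor for R-spondin, measured 123, 118, 141 and 118 CPM in control and 264, 238, 255 and 255 CPM with PI103. AXIN2, a feedback inhibitor of the pathway, measured 364, 329, 389 and 326 CPM in control and 561, 571, 607 and 603 CPM with PI103. RNF43, which removes Wnt receptors, rose from 99.7 ± 9.29 CPM in control to 197 ± 7.33 CPM with PI103. For AXIN2 25.2% and for RNF43 59.5% of exon bases lie under another gene of their strand.

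Gastric and intestinal differentiation genes changed in both directions, with 18 higher and 10 lower of 38 tested. CTSE, a gastric protease, measured 470.2, 433, 459.6 and 421 CPM in control and 928, 831, 939 and 779 CPM with PI103. KLF5, a transcription factor of the gut lining, fell from 449 ± 31.9 CPM in control to 225 ± 18.4 CPM with PI103. KLF4, of the same family, fell from 185 ± 16.1 CPM in control to 73.04 ± 5.74 CPM with PI103. SOX21, of the SOX family, fell from 4.72 ± 0.691 CPM in control to 0.781 ± 0.0707 CPM with PI103. The rises included CDX2, HNF4A, GATA4, GATA6 and MUC1.

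The largest rises among genes with at least 5 CPM in 1 group included several matrix and surface proteins. LYZ, lysozyme, measured 37.7, 48.4, 45.5 and 48.1 CPM in control and 333, 187, 275 and 274 CPM with PI103, with 34% of its exon bases under an antisense gene. LBH, a transcriptional regulator, measured 3.11, 2.81, 2.85 and 2.89 CPM in control and 20.6, 15.2, 17.1 and 17.3 CPM with PI103. MEGF6, an EGF-repeat protein, rose from 2.52 ± 0.5703 CPM in control to 19.6 ± 4.75 CPM with PI103. ADAMTS14, a matrix protease, rose from 0.97 ± 0.358 CPM in control to 5.9 ± 1.13 CPM with PI103. ADAMTSL2, a related matrix protein, rose from 1.43 ± 0.4395 CPM in control to 9.53 ± 0.897 CPM with PI103. LTBP2, which binds matrix fibrils, rose from 1.63 ± 0.337 CPM in control to 8.01 ± 0.959 CPM with PI103. SIGLEC6, a sialic acid receptor, rose from 1.17 ± 0.212 CPM in control to 6.81 ± 0.861 CPM with PI103. LY6G6C rose from 4.52 ± 0.263 CPM in control to 23.6 ± 2.48 CPM with PI103. ECM2, a matrix protein, was among the largest falls, from 21.7 ± 1.72 CPM in control to 0.101 ± 0.0433 CPM with PI103.

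A direct contrast with the other inhibitors asks which changes differ from those after MEK or TAK1 inhibition. Both contrasts use the same 4 PI103 libraries as the comparison with control, so they are not independent of it. PI103 differed from PD0325901 in 6208 genes (44.5%), with 3020 higher (21.7%) and 3188 lower (22.9%). It differed from oxozeaenol in 6014 genes (43.1%), with 2876 higher (20.6%) and 3138 lower (22.5%). List counts in these contrasts are to be read against these shares of all genes. Genes higher with PI103 than in control, PD0325901 and oxozeaenol numbered 949 (6.8%), and genes lower than in all 3 numbered 844 (6.05%).

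The ATF4 list was lower with PI103 than with either agent. Of 38 tested members, 31 were lower than with PD0325901, 33 lower than with oxozeaenol and 31 lower than in all 3 other groups, and the median differences were -1.49 and -1.67. DDIT4 averaged 162 CPM with PD0325901 and 89.3 CPM with oxozeaenol. The DDIT4 difference to PI103 was -5.70 (adjusted p = 6.59e-06) and -4.84 (adjusted p = 3.54e-05) on the log2 scale. NUPR1 averaged 16.1 CPM and 11.9 CPM with these agents. ASNS averaged 351 CPM and 414 CPM, between the control and the PI103 levels.

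**Figure D4:**
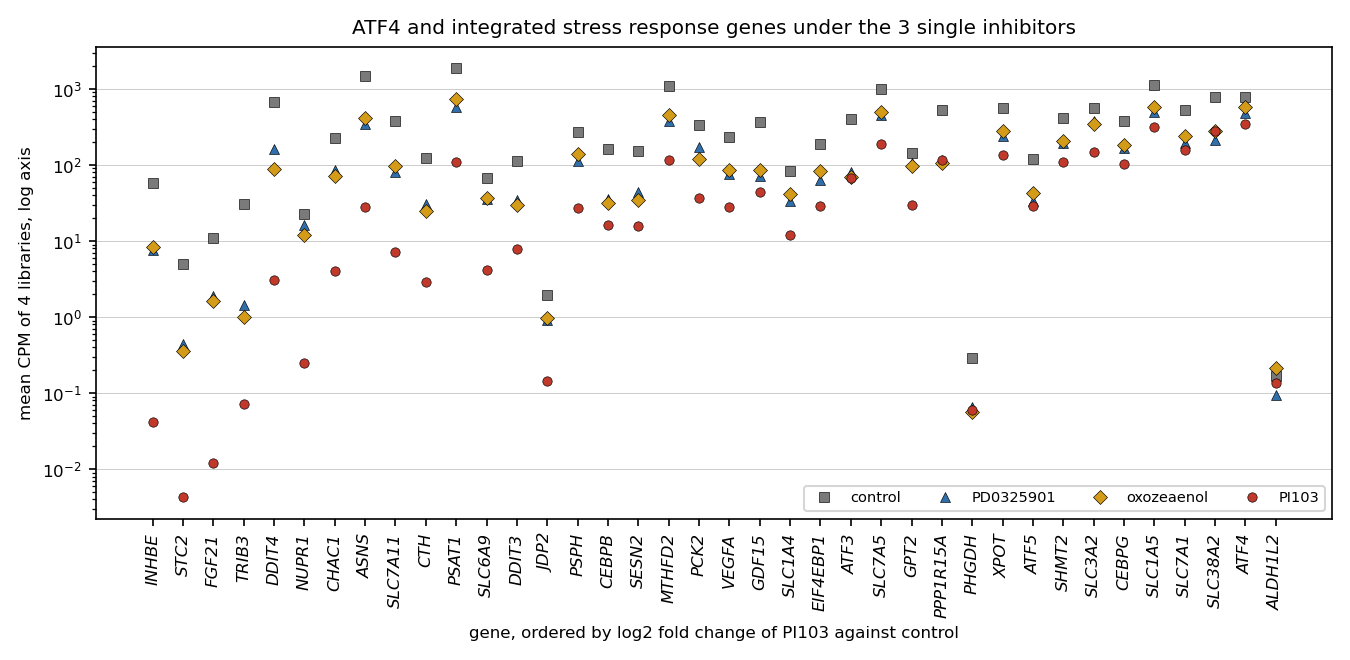
Mean levels in CPM (log axis) of the 38 tested ATF4 list genes in control, PD0325901, oxozeaenol and PI103, each group a mean of 4 libraries. For 31 of the 38 genes PI103 was lower than each of the other 3 groups by the tests.

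Outputs of ERK went the other way. With PI103, 23 of 34 ERK output genes were higher than with PD0325901, and 17 were higher than with oxozeaenol. CCND1 averaged 301 CPM with PD0325901 and 454 CPM with oxozeaenol, against 1067 CPM with PI103. IER3 averaged 8.62 CPM and 11.5 CPM, below its PI103 level, but HBEGF was lower with PI103 than with PD0325901, with a difference of -0.69 on the log2 scale (adjusted p = 2.49e-04). Mitosis genes were higher with PI103 than with PD0325901 in 40 of 43 genes and than with oxozeaenol in 20. DNA replication genes were higher than with PD0325901 in 36 of 41. Against oxozeaenol 5 of them were higher and 8 lower, with a median difference of -0.14.

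Receptor genes separated the agents as well. ERBB3 was higher with PI103 than with PD0325901 by 0.86 (adjusted p = 1.61e-08) and than with oxozeaenol by 1.00 (adjusted p = 2.04e-09) on the log2 scale. Interferon genes did not follow this order, since 26 of 51 were lower with PI103 than with PD0325901. Against oxozeaenol 13 of them were lower and 12 higher. Respiratory chain genes were lower with PI103 than with oxozeaenol in 45 of 67, and cholesterol genes in 21 of 29. Against PD0325901, 23 respiratory chain genes and 19 cholesterol genes were lower, and 2 genes of each list were higher. CYP1A1 averaged 11.9 CPM with PD0325901 and 8.44 CPM with oxozeaenol against 0.461 CPM with PI103.

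**Figure D5:**
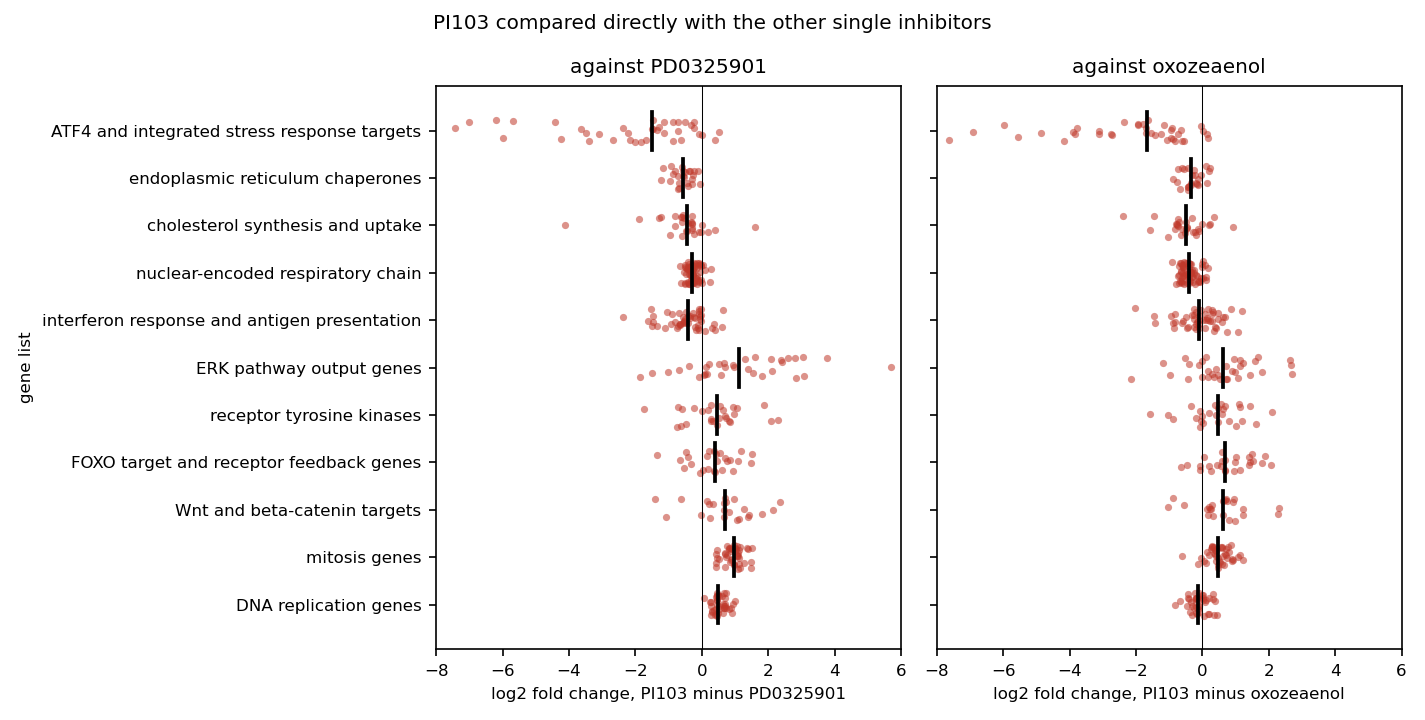
Differences on the log2 scale between PI103 and PD0325901 and between PI103 and oxozeaenol for the tested genes of 11 lists, 1 dot per gene with the list median. The median of the ATF4 list lies to the left of 0 in both contrasts and that of the ERK output list to the right.

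The genes that differed most upward from both agents were EMP1, F5, CACNG6, PRR9, MAP1B and ADAMTSL2. EMP1, an epithelial membrane protein, measured 16.02, 13.9, 14.4 and 13.5 CPM in control and 51.2, 38.6, 46.1 and 38.1 CPM with PI103. Its mean was 3.33 CPM with PD0325901 and 7.36 CPM with oxozeaenol, below control. F5, coagulation factor V, measured 40.7, 35.3, 40.3 and 37.2 CPM in control and 115, 90.5, 89.95 and 99.1 CPM with PI103, with means of 15.8 CPM and 14.1 CPM after the other agents. CACNG6, a calcium channel subunit, rose from 19.6 ± 2.66 CPM in control to 38.8 ± 2.08 CPM with PI103. PRR9 rose from 12.6 ± 1.94 CPM in control to 23.4 ± 1.93 CPM with PI103. MAP1B, a microtubule-binding protein, rose from 2.81 ± 0.648 CPM in control to 7.41 ± 1.92 CPM with PI103. With the exception of ADAMTSL2 after PD0325901, these genes averaged less after either other agent than in control.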

How the data were processed

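The authors deposited 1 table of read counts per gene symbol for 24 libraries. Per the labels' protocols, libraries were made from total RNA with a stranded mRNA kit, and per the submitters' processing notes the build is GRCh38. The aligner, the counting program, its strand setting and the annotation are not given in the sources used here, so genes that overlap another gene are uncertain, and such overlaps were looked up in GENCODE 29. The 5 closing tally rows were left out. Groups follow the titles, since the treatment field of later PI103 replicates counts the compound name upward.

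Genes were kept by filterByExpr (13947 of 23368, holding 99.989% of counts), TMM-scaled, and modelled in R 4.3.3 with edgeR 4.0.16 by robust quasi-likelihood over 24 libraries in 6 groups, with DESeq2 1.42.0 as an alternative. The common biological coefficient of variation was 0.131. Tests were two-sided with Benjamini-Hochberg adjustment, and the SE was derived from the log2 fold change and its F statistic (size over root F). On simulated data for PI103 against control with 13947 genes, 100 genes were changed by 1 and 100 by 2 on the log2 scale. Of these, 95% and 100% were called, with 9 false calls. The simulation had no batch structure and far fewer changed genes than the 7162 called here. Its false calls therefore do not give the error of this comparison. The replicate number is also the batch in the labels, so it pairs the libraries. Deviations of same-numbered PI103 and control libraries correlated at 0.012, -0.122, 0.25 and 0.188. Those of differently numbered libraries correlated at -0.236 to 0.248.

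The comparison and the gene lists were chosen with earlier results of these data known. The lists are described by counts and medians, with no set test. The named genes are the 12 largest rises and the 12 largest falls with at least 5 CPM in 1 group and 1 sign in 4 of 4 batches, the 4 smallest adjusted p of each list, fixed pathway genes, the 6 highest and 6 lowest against both other agents, and the 8 largest gains and 8 largest losses in CPM. Genes named without values to complete a count, and genes marked in the text, lie outside this rule. Some genes that the rule names are not reported here. Promoters are from RefSeq, GRCh38.p14. Intervals for low counts are 95% Poisson intervals. Alternatives were other scalings, filters, DESeq2, fewer libraries, a minimum change, the replicate block and leaving out each library.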

Additional observations from a re-analysis of the deposited data

Results flagged for a closer look

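In 22 of 401 groups of 4 libraries, 1 library stood apart from the other 3 by Dixon's gap-over-range criterion at its 95% critical value, applied to CPM. Chance alone flags about 1 in 20 groups. Control replicate 1 was the library in 7 of them. It was low for CEBPG at 313 CPM (others 389 to 399), for SLC1A4 at 72.0 CPM (others 85.8 to 88.0) and for AJUBA at 321 CPM (others 409 to 420). It was high for CTPS at 189 CPM (others 177 to 178), for EPAS1 at 47.2 CPM (others 37.5 to 38.7), for TIPARP at 83.1 CPM (others 75.6 to 76.5) and for RPTOR at 39 CPM (others 31.3 to 31.6). Control replicate 4 was high for BCL2L13 at 78.7 CPM (others 68.8 to 69.8).

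Among PI103 libraries, replicate 1 was low for MYCN at 4.03 CPM (others 5.24 to 5.48). It was high for SIGLEC6 at 8.1 CPM (others 6.36 to 6.42) and for WARS2 at 26 CPM (others 22.4 to 22.5). Replicate 2 was high for CHAC1 at 6.14 CPM (others 3.15 to 3.58), SLC6A9 at 5.55 CPM (others 3.61 to 3.76) and TKT at 358 CPM (others 270 to 283). It was also high for EPAS1 at 21.5 CPM (others 18.3 to 18.8) and FEN1 at 105 CPM (others 91.2 to 91.7), and low for PMAIP1 at 11.7 CPM (others 14.8 to 15.2). Replicate 4 was low for DDX21 at 225 CPM (others 274 to 280), CALCOCO2 at 47.3 CPM (others 55.6 to 56.8) and MCM6 at 193 CPM (others 217 to 221). It was high for ACADVL at 127 CPM (others 108 to 111) and OAS3 at 80.2 CPM (others 74.2 to 75.2). Of these genes only TKT and RPTOR had libraries that overlapped between control and PI103.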

How the results depend on the processing

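The comparison with control kept between 6553 and 6885 calls when single libraries were left out (3298 to 3493 higher and 3221 to 3430 lower). The contrast with PD0325901 then gave 5514 to 5981 (2526 to 2811 higher and 2825 to 3385 lower), and that with oxozeaenol 5165 to 6166 (2436 to 2890 higher and 2654 to 3276 lower). Tested against a required log2 change of at least 1, 469 genes were called against control (193 higher, 276 lower), 656 against PD0325901 (211 higher, 445 lower) and 413 against oxozeaenol (186 higher, 227 lower). The minimum asks for more change, so fewer calls follow from its construction. With the replicate number as a block, 7848 genes were called against control (4011 higher, 3837 lower) in place of 7162. The block changed the call of no named gene. It moved the lower counts of respiratory chain genes from 14 to 23, of ribosomal proteins from 5 to 18 and of chaperones from 5 to 8. Upper-quartile scaling moved the lower count of G1 cyclins and CDK inhibitors from 6 to 3 and the higher counts of eIF2 genes from 2 to 4 and of translation factors from 3 to 6. With only the 2 groups in the fit, 8 keratin and junction genes were higher in place of 5.

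Of 210 tested named genes, 78 kept their direction and side of the threshold under all settings and 132 did not under at least 1, in 127 of them under the minimum change. The log2 fold change of RPTOR, not called, turned to 0.02 with upper-quartile scaling and 0.03 without control replicate 1, in a range of -0.09 to 0.03 over single libraries left out. That of PRKDC, not called, turned to -0.01 without a filter, -0.04 without control replicate 2, -0.02 without PI103 replicate 3 and -0.02 without control replicate 4, in a range of -0.04 to 0.08. The cause was not tested. Called with only the 2 groups in the fit were IRS1 (0.18, adjusted p = 0.0391) and CCND1 (0.26, adjusted p = 0.0122). TKT was not called with upper-quartile scaling (adjusted p = 0.0846). Upper-quartile scaling also raised the share of calls that were higher from 51.02% to 59.91%. At these depths the counting error matters for genes with a few counts, such as FGF21, INHBE and KLHDC7B with PI103.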

Other observations

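By mean level in CPM, the 8 genes that gained most were HSPA8, HSP90B1, HSP90AA1, PTMA, TUBB, S100A6, S100A10 and TSPAN8. The 8 largest gains summed to 7884 CPM and the 8 largest losses to 9474 CPM. HSPA8, a constitutive heat shock protein, measured 1905, 738, 1190 and 776 CPM in control and 2993, 3190, 3133 and 2988 CPM with PI103. Control replicates 1 and 3 were above control replicates 2 and 4, and the log2 difference by batch ranged from 0.65 to 2.11. HSP90B1, a chaperone of the endoplasmic reticulum, rose from 1612 ± 270.2 CPM in control to 2902 ± 227 CPM with PI103. HSP90AA1 was called higher at 2255 ± 469.9 CPM in control and 3056 ± 227 CPM with PI103 with overlapping libraries. PTMA, a small nuclear protein, rose from 1819 ± 111 CPM in control to 2883 ± 104 CPM with PI103, and TUBB, a tubulin, from 1083 ± 179.9 CPM in control to 1733 ± 106 CPM with PI103. S100A6, a calcium-binding protein, rose from 1585 ± 223 CPM in control to 2445 ± 259 CPM with PI103. S100A10, of the same family, rose from 1550 ± 39.9 CPM in control to 2192 ± 89.03 CPM with PI103. TSPAN8, a tetraspanin of the gut, rose from 555 ± 87.7 CPM in control to 1208 ± 167 CPM with PI103.

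Among the largest losses were PSAT1, ASNS, MTHFD2 and SLC1A5, described above, together with 4 genes outside amino acid supply. ERRFI1, a feedback inhibitor of EGFR, measured 1364, 1857, 1564 and 1921 CPM in control and 301, 249, 252 and 231 CPM with PI103. CD55, a shield against complement, fell from 2072 ± 258 CPM in control to 932 ± 73.8 CPM with PI103. FTL, the ferritin light chain, fell from 3453 ± 180.2 CPM in control to 2371 ± 261 CPM with PI103. ANKRD1, a YAP target, fell from 1151 ± 322 CPM in control to 323 ± 39.05 CPM with PI103. Of 18 tested YAP and TEAD targets, 8 fell and 5 rose. AJUBA, a junction protein that restrains the Hippo kinases, fell from 391 ± 46.96 CPM in control to 144 ± 4.02 CPM with PI103, F3, tissue factor, fell from 16.3 ± 0.553 CPM in control to 8.703 ± 0.351 CPM with PI103, and WWTR1 (TAZ), a partner of TEAD factors, rose from 13.3 ± 1.47 CPM in control to 25.3 ± 3.199 CPM with PI103.

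Of 29 tested keratin and junction genes, 5 rose and 7 fell. VIM, vimentin, rose from 6.37 ± 0.479 CPM in control to 16.3 ± 0.6197 CPM with PI103, next to the higher summed level of fibroblast markers, whose part in it was not tested. CLDN1, a tight junction protein, fell from 152 ± 9.48 CPM in control to 54.9 ± 5.67 CPM with PI103. The keratins KRT13 and KRT16 moved apart at low levels. KRT13 rose from 7.99 ± 0.992 CPM in control to 17.03 ± 1.38 CPM with PI103, and KRT16 fell from 1.41 ± 0.297 CPM in control to 0.148 ± 0.0461 CPM with PI103. UGT1A6, a conjugating enzyme with 44% of its exon bases under another gene of its strand, fell from 69.99 ± 5.87 CPM in control to 45.3 ± 2.88 CPM with PI103.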
